A study of Mus musculus with 18 samples.

Results

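The genes described here are 7 genes of the thymic epithelium measured on arrays of mouse thyroid: Foxn1, Psmb11, Prss16, Ccl25, Tbata, Aire and Fezf2. They were chosen by name, as every non-control probe whose accession maps to one of these genes, and not by their values. They were read by 10 of the 41174 non-control probes on the array, and all 7 were among the 17924 genes that passed the filter on dim signal. Ccl25, Psmb11 and Tbata had 2 probes each and the others 1. Each gene's level is that of its brightest probe unless the other is named. The same probe was used on every array, so it need not be the brightest in each group.

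The series compared thyroids of Glis3KO2 mice (called KO2), labelled by that genotype name alone, with thyroids of wild-type (WT) mice, all C57BL/6 and about 1 month of age. There were 5 KO2 and 5 WT arrays from mice on a normal NIH31 diet, and 4 KO2 and 4 WT arrays from mice given a low-iodine (Harlan) diet for 6 days. All the mice were weaned at 3 weeks onto one of these diets. Total RNA (50 ng) was amplified and labelled with Cy3, so each array holds 1 sample. The series text counts mice, while the labels call the samples replicates and do not name the animals. The sex of the mice and the deleted part of Glis3 were not given in the sources used here.

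The thymic epithelium is the stroma in which T cells mature. In mice the thymus and the parathyroid glands arise from the third pharyngeal pouch and migrate past the developing thyroid, and lobes of thymus tissue are known to lie in the neck near the thyroid. Foxn1 switches on the genes that recruit and select thymocytes: cortical cells make the thymoproteasome subunit Psmb11 and the protease Prss16, and medullary cells use Aire and Fezf2 to display antigens of other tissues. In RNA from whole tissue, fewer cells of a type and less RNA per cell cannot be told apart.

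Promoters are shown for the 3 genes whose levels followed each other most closely between arrays, Psmb11, Ccl25 and Tbata. Each sequence holds 250 bases before and 50 after an annotated start, from RefSeq on build GRCm38.p6, on the plus strand, which is the strand of the gene. Capitals mark the 5-base core GACGC, which the mouse Foxn1 protein binds, or GCGTC where the core lies on the other strand.
Psmb11, chr14:54625060-54625359: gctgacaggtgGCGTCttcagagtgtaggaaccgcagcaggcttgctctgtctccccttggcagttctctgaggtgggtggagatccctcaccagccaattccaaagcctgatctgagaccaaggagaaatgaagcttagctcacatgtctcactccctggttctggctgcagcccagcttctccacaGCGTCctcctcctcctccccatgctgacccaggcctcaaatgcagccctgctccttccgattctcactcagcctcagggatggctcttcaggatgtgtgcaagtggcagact
Ccl25, upstream start, chr8:4324960-4325259: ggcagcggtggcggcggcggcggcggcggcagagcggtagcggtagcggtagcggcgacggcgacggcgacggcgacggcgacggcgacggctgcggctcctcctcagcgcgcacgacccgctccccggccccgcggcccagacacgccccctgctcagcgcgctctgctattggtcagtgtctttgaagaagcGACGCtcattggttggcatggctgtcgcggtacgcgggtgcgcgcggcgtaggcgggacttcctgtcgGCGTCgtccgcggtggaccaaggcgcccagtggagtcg
Ccl25, downstream start, chr8:4349338-4349637: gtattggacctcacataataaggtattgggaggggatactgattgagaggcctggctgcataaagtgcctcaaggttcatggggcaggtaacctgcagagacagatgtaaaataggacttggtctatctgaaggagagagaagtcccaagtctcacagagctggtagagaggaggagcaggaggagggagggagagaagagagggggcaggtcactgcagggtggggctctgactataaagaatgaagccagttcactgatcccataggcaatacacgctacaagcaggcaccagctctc
Tbata, chr10:61171714-61172013: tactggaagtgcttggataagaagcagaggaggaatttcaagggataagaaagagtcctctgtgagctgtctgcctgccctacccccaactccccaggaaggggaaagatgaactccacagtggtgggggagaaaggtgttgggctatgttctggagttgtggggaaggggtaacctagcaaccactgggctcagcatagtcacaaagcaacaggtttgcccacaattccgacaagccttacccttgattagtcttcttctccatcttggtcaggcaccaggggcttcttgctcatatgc
The Psmb11 window held 2 cores, at positions −239 and −62 from the start, both on the other strand. The window at the upstream Ccl25 start held 1 on the gene's strand at −56 and 1 on the other strand at 13, and the letters were in neither the downstream Ccl25 window nor the Tbata window. Over the members, 4 of 7 windows held the core, against 27.2% of 32851 promoter windows of the same length. No promoter window was at hand for Prss16. Such a match is a description of the letters only.

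The level used throughout is the log2 processed signal of a probe minus the 75th percentile of its array, so 0 is the brightness of a probe at that percentile, and levels of different probes cannot be set against each other. A probe counts as well above background by the scanner software's own test. Between 60.1% and 90.6% of the spots of an array were well above background, and no spot was saturated. The tissue label held on every array: thyroglobulin (Tg) lay between 8.41 and 9.04 on the normal diet and between 6.41 and 7.38 on low iodine. Glis3 itself lay between −5.46 and −4.16 in KO2 and between −6.08 and −4.79 in WT on the normal diet, and did not differ past the test (log2 difference 0.45 ± 0.42 SE, adjusted p = 0.732 in limma). Since the deleted part of the gene is not given, its probe cannot check the labels.

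Of the 3 slides with normal-diet arrays, slide 1, which holds KO2 replicate 2 and WT replicate 1, stood apart for these genes: there the KO2 array was the brighter one. Other genes that differed between the genotypes were also read on these 2 arrays. The iodide and chloride transporter Slc26a4 was at −4.55 on that KO2 array, within the KO2 range, and at −1.05 on that WT array, the highest of the WT range of −3.38 to −1.05. The mean level of 10 genes of dividing cells was −4.53 on the KO2 array and −1.58 on the WT array, each within its own group's range. The keratin gene Krt5, lower in KO2 on this diet, was at 1.48 on the KO2 array and 1.28 on the WT array. These were the highest KO2 and the lowest WT levels of Krt5. Whether the labels of the 2 arrays are right was not tested. Results are given with and without these 2 arrays, a choice made after the values were seen.

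Foxn1, the forkhead factor without which no functional thymic epithelium forms, was dim on the normal diet. Its levels in KO2 replicates 1 to 5 were −5.65, −4.25, −4.12, −5.14 and −6.86. In WT replicates 1 to 5 they were −6.85, −2.59, −3.16, −3.54 and −3.74. WT replicate 1 stood as low as the lowest KO2 array, and the other WT arrays were above all KO2 arrays.

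Psmb11, the β5t subunit of the thymoproteasome made by cortical epithelium, spread widely. Its levels in KO2 replicates 1 to 5 were −4.94, −0.80, −5.66, −4.93 and −5.95. In WT replicates 1 to 5 they were −4.78, 2.64, 1.30, 1.58 and 2.91. KO2 replicate 2 was the one bright KO2 array and WT replicate 1 the one dim WT array, so that the groups overlapped only through slide 1. From the lowest to the highest array the signal spanned 35.6-fold within KO2 and 207-fold within WT.

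Prss16, a thymus-specific serine protease of cortical epithelium, was similar. Its levels in KO2 replicates 1 to 5 were −2.96, −0.98, −4.53, −4.70 and −4.20. In WT replicates 1 to 5 they were −1.56, 2.08, 0.51, 0.97 and 2.45. Again KO2 replicate 2 was the highest KO2 array and lay above WT replicate 1.

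Ccl25, the chemokine that draws T-cell progenitors through the receptor Ccr9 and that the small intestine also makes, was well above background on every array. Its levels in KO2 replicates 1 to 5 were −1.12, 1.42, −1.24, −0.67 and −1.35. In WT replicates 1 to 5 they were −0.65, 4.28, 2.54, 3.55 and 4.63. WT replicate 1 fell among the KO2 arrays, and KO2 replicate 2 lay between the KO2 arrays and the other WT arrays.

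Tbata, named for its expression in thymus, brain and testis and made by thymic epithelium, had the same shape. Its levels in KO2 replicates 1 to 5 were −5.52, −0.79, −5.17, −5.31 and −6.46. In WT replicates 1 to 5 they were −5.40, 1.72, −0.73, 0.58 and 1.90. KO2 replicate 2 came close to WT replicate 3, the lowest WT array but for replicate 1.

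The medullary regulators split the arrays in a similar way. Aire, which drives expression of tissue-restricted antigens, was at −4.76, −2.40, −4.93, −4.68 and −5.03 in KO2 replicates 1 to 5, and at −4.82, −1.62, −4.84, −3.74 and −2.88 in WT replicates 1 to 5. Fezf2, which drives a different set of such antigens, was at −8.46, −4.82, −8.30, −6.81 and −8.25 in KO2 and at −8.73, −3.78, −8.39, −6.89 and −5.20 in WT, and was well above background on 1 of 5 KO2 and 2 of 5 WT arrays. For both genes the bright arrays were KO2 replicate 2 and WT replicates 2 and 5, with WT replicate 3 as dim as WT replicate 1.

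**Figure D1:**
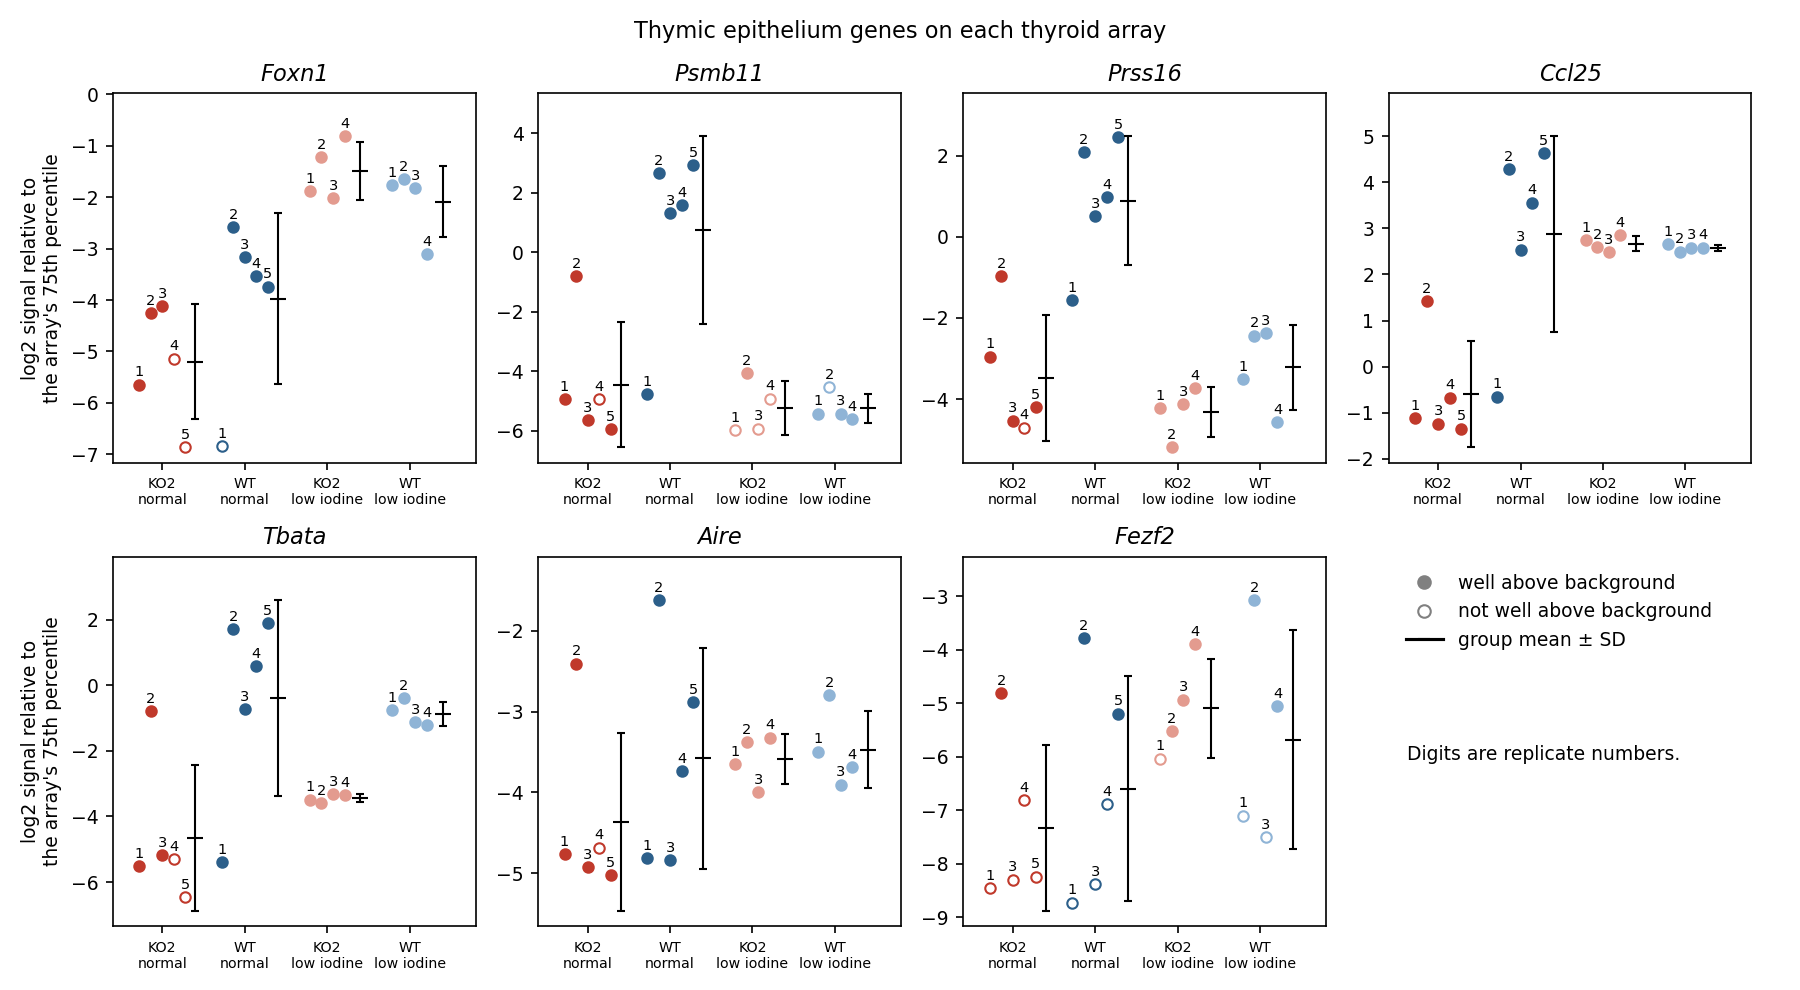
Log2 level of the brightest probe of each of the 7 genes (one panel a gene, y axis, relative to the array's 75th percentile) on each array, by group (x axis), with KO2 left of WT within each diet. Points are arrays and bars are group means with 1 SD, and open points are not well above background. The slide 1 arrays, KO2 replicate 2 and WT replicate 1, lie apart from the rest of their groups for Psmb11, at −0.80 and −4.78.

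Prss16, Ccl25 and Psmb11 were lower in KO2 than in WT thyroids on the normal diet. Prss16 averaged −3.47 ± 1.55 in KO2 and 0.89 ± 1.58 in WT (SD, n = 5 each), a log2 difference of −4.37 ± 0.77 SE or 20.6-fold (adjusted p = 0.00999, limma with Benjamini-Hochberg adjustment over all genes). Ccl25 averaged −0.59 ± 1.15 in KO2 and 2.87 ± 2.13 in WT, a difference of −3.46 ± 0.76 SE (adjusted p = 0.0317, limma). Psmb11 averaged −4.46 ± 2.09 in KO2 and 0.73 ± 3.16 in WT, a difference of −5.19 ± 1.21 SE (adjusted p = 0.0430, limma). The 3 that passed are thus the chemokine and both cortical enzymes.

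Tbata averaged −4.65 ± 2.22 in KO2 and −0.39 ± 2.99 in WT and missed the threshold (−4.26 ± 1.17 SE, adjusted p = 0.0863, limma). Foxn1 (−1.23 ± 0.67 SE, adjusted p = 0.463), Aire (−0.78 ± 0.57 SE, adjusted p = 0.634) and Fezf2 (−0.73 ± 1.02 SE, adjusted p = 0.842, all limma) did not pass. In all, 3 of the 7 genes were lower and 0 higher, where 0.876% of all genes tested were called lower. Markers of other cells were lower in KO2 too: 9 of 10 genes of dividing cells (median −2.87), with a mean level between −5.27 and −2.86 in KO2 and between −2.88 and −0.17 in WT, and 4 of 8 fibroblast genes (median −1.32), with a mean level between 0.86 and 2.39 in KO2 and between 2.58 and 3.25 in WT. Their part in the differences of the 7 genes was not tested. The 7 genes had a median difference of −3.46, against 0.05 over all genes. None of the 7 had groups that did not overlap, as 3.52% of all genes did.

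These calls changed with the arrays in the fit. With the normal-diet arrays fitted alone no member passed (adjusted p = 0.0876 for Prss16, 0.149 for Ccl25 and 0.162 for Psmb11, limma), and with slide as a block only Prss16 did (adjusted p = 0.0248). Leaving out single arrays gave between 1 and 4 members, with 4 without WT replicate 1 or KO2 replicate 2 and 1 without any of WT replicates 2 to 5 or KO2 replicates 1, 3 and 5.

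The genes did not go the same way on every slide. On slide 1 the difference of KO2 minus WT was 3.98 for Psmb11, 2.08 for Ccl25, 0.58 for Prss16 and 4.61 for Tbata. On slide 2 it was −7.27, −4.36, −5.91 and −5.74 for the same genes in that order, and on slide 3 it was −7.70, −5.32, −5.29 and −7.23. All 7 genes were higher in KO2 on slide 1 and lower on slides 2 and 3, down to Foxn1 (2.60, −1.76 and −2.61 on slides 1, 2 and 3).

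Without slide 1 the differences were larger and 4 genes passed, where 0.636% of all genes were called lower. Psmb11 was 179-fold lower in KO2 (−7.48 ± 0.46 SE, adjusted p = 2.04e-06), Tbata differed by −6.48 ± 0.46 SE (adjusted p = 5.09e-06), Ccl25 by −4.84 ± 0.33 SE (adjusted p = 4.43e-06) and Prss16 by −5.60 ± 0.56 SE (adjusted p = 3.04e-04, all limma). Foxn1 remained just short (−2.18 ± 0.50 SE, adjusted p = 0.0571). The KO2 and WT arrays then did not overlap for 5 of 7 genes (Ccl25, Foxn1, Prss16, Psmb11 and Tbata), as for 7.73% of all genes. Slide 1 was chosen for removal on these same values, so these p-values are a description.

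The other probes pointed the same way on the normal diet. The second Ccl25 probe differed by −3.52 ± 0.87 SE (adjusted p = 0.0629, limma over all probes) and the second Tbata probe by −2.71 ± 1.02 SE (adjusted p = 0.263). The second Psmb11 probe was well above background on 0 of 5 KO2 and 4 of 5 WT arrays, with means of −7.37 in KO2 and −4.23 in WT, at least 2.62-fold lower in KO2 when the dimmest signals well above background stand for its level there (adjusted p = 0.126). Within groups the 2 probes of a gene followed each other on the normal-diet arrays, with r = 0.986 for Ccl25, 0.961 for Tbata and 0.927 for Psmb11.

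The genes varied together between arrays of one group on the normal diet. Their spread within groups was wide: the pooled SD was 2.68 for Psmb11, 2.63 for Tbata, 1.85 for Fezf2, 1.71 for Ccl25, 1.57 for Prss16, 1.42 for Foxn1 and 1.24 for Aire, against a median of 0.355 over all genes. Among the 17924 genes these spreads stood between the percentiles 97.8 (Aire) and 99.8 (Psmb11 and Tbata). Among WT arrays, replicate 1 was the lowest for 6 of 7 genes (replicate 3 for Aire), and Psmb11, Prss16, Ccl25 and Tbata put all 5 WT arrays in 1 order. Among KO2 arrays, replicate 2 was the highest for 6 of 7 genes, with Foxn1 the exception.

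Counted by array, all 7 genes were above their group mean on KO2 replicate 2, and 1, 1, 2 and 0 of 7 on KO2 replicates 1, 3, 4 and 5. On WT replicates 1 to 5 the counts were 0, 7, 2, 5 and 7. The mean deviation over the 7 genes was −0.48, 2.49, −0.55, −0.31 and −1.15 in KO2 replicates 1 to 5 and −3.25, 1.83, −0.39, 0.37 and 1.45 in WT replicates 1 to 5. The shared deviations thus occurred in both genotypes and were largest on the slide 1 arrays.

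**Figure D2:**
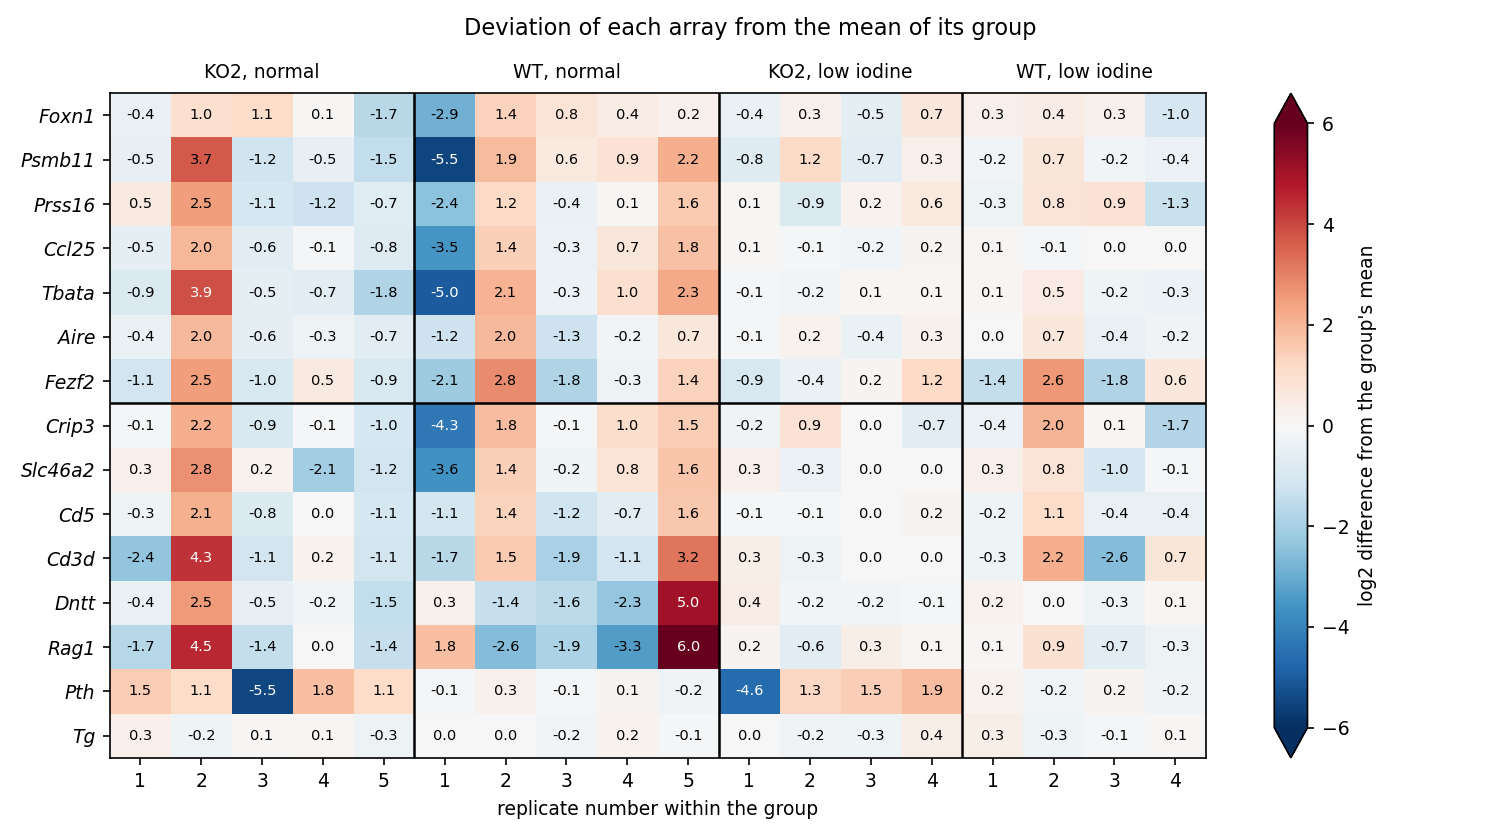
Deviation of each of the 7 genes from its own group mean (colour, log2) on every array (x axis), KO2 before WT within each diet. On the normal diet KO2 replicate 2 and WT replicates 2 and 5 were above the group mean for all 7 genes, and WT replicate 1 and KO2 replicate 5 for 0.

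All 21 pairs of genes had a positive correlation of within-group deviations over the 10 normal-diet arrays, with r between 0.557 and 0.983 and a median of 0.834. For Ccl25 and Psmb11, r was 0.980 and Spearman's rho 0.988 (exact within-genotype permutation test, two-sided, p = 6.94e-05 for each, the smallest that 14400 arrangements allow; adjusted p = 0.00292 over the 42 pairs of both diets). For Psmb11 and Tbata, r was 0.983 and rho 0.964 (exact p = 0.000625 and 0.00222; adjusted p of r = 0.007), and for Ccl25 and Tbata r was 0.983 and rho 0.939 (exact p = 0.000486 and 0.00264; adjusted p of r = 0.007). The chemokine, the cortical proteasome subunit and Tbata thus moved almost in step.

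The medullary pair Aire and Fezf2 also followed each other (r = 0.969, rho = 0.927, exact p = 0.000833 and 0.0025; adjusted p of r = 0.007), though Fezf2 was near background on most arrays. Foxn1 was the loosest: its r was 0.557 with Aire, 0.580 with Fezf2 and 0.613 with Prss16 (exact p = 0.126, 0.107 and 0.0943). With Ccl25, Psmb11 and Tbata its r was 0.784, 0.812 and 0.818 (exact p = 0.0405, 0.0347 and 0.0145). Without the 2 farthest arrays of each pair, r was still 0.891 for Ccl25 and Psmb11, 0.860 for Psmb11 and Tbata, 0.926 for Ccl25 and Tbata and 0.929 for Aire and Fezf2. Over all 21 pairs it then lay between 0.048 and 0.929 with a median of 0.686, so part of the size of these correlations rested on the extreme arrays, WT replicate 1 and KO2 replicate 2 for the first 3 of these pairs.

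**Figure D3:**
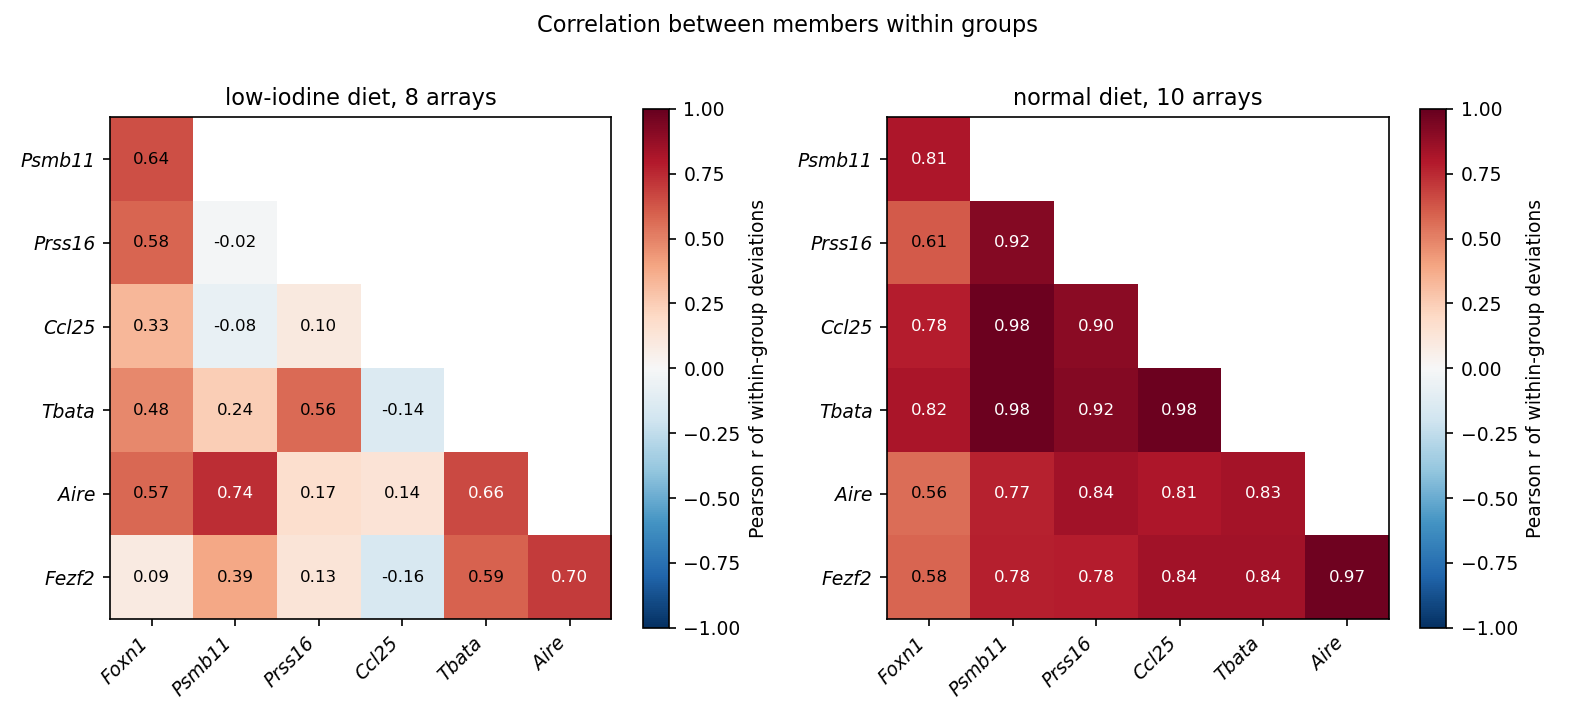
Pearson r of within-group deviations for the 21 pairs of the 7 genes, over the 10 normal-diet arrays and over the 8 low-iodine arrays. The median is 0.834 on the normal diet and 0.334 on low iodine.

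**Figure D4:**
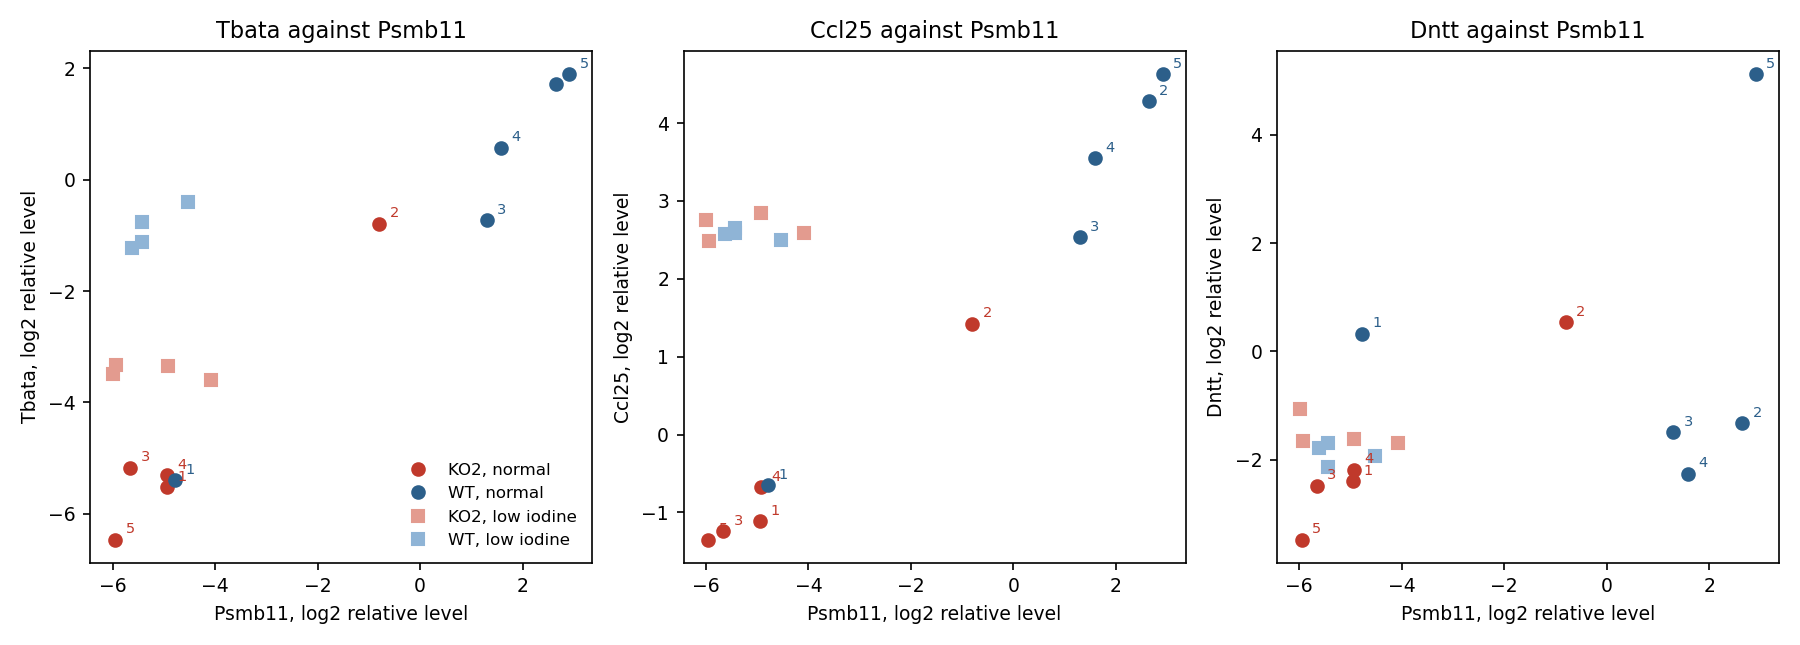
Log2 level of Psmb11 (x axis) against that of Tbata, Ccl25 and the immature lymphocyte gene Dntt (y axes, 1 panel each), all relative to the 75th percentile, on each array, coloured by group, with replicate numbers on the normal diet. Tbata and Ccl25 lie close to a line over the normal-diet arrays, and Dntt does not, with 5.12 on WT replicate 5 and −1.33 on WT replicate 2.

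A regression of every gene on the deviation of 1 member sets these pairs against the rest of the array. With Foxn1 as that gene, 0 of the 6 other members passed on the normal diet, where 1 of 17923 genes (0.00558%) did. Tbata had the smallest p of the members, with a slope of 1.52 ± 0.28 SE (adjusted p = 0.223, limma) and rank 5 of all genes. With Psmb11 in place of Foxn1, Tbata (slope 0.97 ± 0.06 SE, adjusted p = 7.50e-07) and Ccl25 (0.63 ± 0.04 SE, adjusted p = 1.20e-06, limma) ranked 1 and 2 of 17923 genes, where 6 genes (0.0335%) passed.

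The 6 included Crip3, a LIM protein of thymus (slope 0.73, adjusted p = 0.00629), and Slc46a2, a transporter of thymic stroma (0.69, adjusted p = 0.0147), beside Slc22a7 and the predicted gene Gm14207 (0.48 and 0.28, adjusted p = 0.0198 for each, limma). Tbata and Ccl25 passed within KO2 arrays alone (slopes 1.04 ± 0.10 and 0.55 ± 0.07 SE, adjusted p = 0.00192 and 0.0344, limma; 0.0112% of all genes) and within WT arrays alone (0.94 ± 0.06 and 0.66 ± 0.05 SE, adjusted p = 3.59e-05 for each; 0.0391% of all genes). In KO2, Psmb11 was at −0.80 on replicate 2 and between −5.95 and −4.93 on the others. In WT it was at −4.78 on replicate 1 and between 1.30 and 2.91 on the others. Each slope thus rests mostly on a lone array of slide 1. With Prss16 as the regressor 3 of 6 members passed, Tbata, Ccl25 and Psmb11 (0.0223% of all genes), and with Ccl25 2 of 6, Tbata and Psmb11 (0.0335%).

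Without slide 1, 0 of 6 members passed on Psmb11 (0.0112% of all genes did). The 2 genes that passed were the T-cell surface genes Cd8a (slope 2.50 ± 0.32 SE) and Cd6 (1.64 ± 0.21 SE, adjusted p = 0.0339 for each, limma). The member slopes were then 0.92 ± 0.17 SE for Ccl25 (adjusted p = 0.413, rank 6) and 1.23 ± 0.25 SE for Tbata (rank 15; neither passed, limma).

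Genes outside the 7 with the most similar pattern were ranked by r with the mean member deviation over the 10 normal-diet arrays. The 12 highest, after leaving out 1 gene for its clone, predicted-gene or Rik name, were Crip3 (0.970), the decoy receptor Il1r2 (0.952), Gpr171 (0.948), the neurofilament gene Nefm (0.945), Galnt6 (0.942), Apbb1ip (0.936), the organic anion transporter Slc22a7 (0.935), the angiopoietin Angpt1 (0.931), the receptor of the thymocyte growth factor IL-7, Il7r (0.923), Slc46a2 (0.921), Bin2 (0.919) and Ifi202b (0.918). On the 10 normal-diet arrays Angpt1 was well above background on 2 and Nefm and Ifi202b on 4 each, so their r rests mostly on values near background. Outside the list, 20 genes (0.112%) had r above 0.9, against a median of 0.100 over all genes. Of the members, each against the mean of the others, Tbata (0.988), Ccl25 (0.975) and Psmb11 (0.961) ranked 1 of 17918 genes and Foxn1 (0.755) ranked 254.

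Crip3, a gene that no list held, was picked for having the highest r with the mean member deviation on these same arrays. Its likeness to the members follows from that choice and is no separate test. Its level in KO2 replicates 1 to 5 was −3.19, −0.90, −3.99, −3.12 and −4.10, and in WT replicates 1 to 5 it was −3.82, 2.33, 0.43, 1.54 and 1.97. It was highest on KO2 replicate 2 among KO2 arrays and lowest on WT replicate 1 among WT arrays, as for the cortical genes.

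Lists of other thymus cells were set beside the 7 genes by the same measure. Of 9 further cortical genes and Foxn1 targets 8 were measured, with a median r of 0.547 and none above 0.8, and 1 of them, Cd83, was lower in KO2 on the normal diet (−2.04, adjusted p = 0.0219, limma). Of 11 genes on the medullary list the median r was 0.406. The 1 above 0.8 was Ltb (0.88), a cytokine gene of lymphocytes and not of the epithelium itself. Of the 11, 2 were lower in KO2, the basal keratins Krt5 (−2.74, adjusted p = 0.0436) and Krt14 (−1.51, adjusted p = 0.0154, limma). Pouch factors such as Pax1 and Eya1 had a median r of 0.238, parathyroid genes 0.160 and follicular genes −0.174, against 0.100 over all genes. Lists of B cells (0.439), endothelium (0.422), skeletal muscle (0.419) and macrophages (0.357) were close to the medullary list.

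Of 20 thymocyte genes 17 were measured, with a median r of 0.539; the T-cell surface genes Cd2 (0.86), Cd5 (0.85) and Cd3g (0.83) were above 0.8 and 0 differed between genotypes. The mean level of the 17 was −3.28, −1.50, −3.35, −2.78 and −3.62 in KO2 replicates 1 to 5 and −2.44, −1.78, −2.96, −2.71 and 0.40 in WT replicates 1 to 5. It was highest on KO2 replicate 2 and WT replicate 5, both arrays on which all 7 epithelial genes were above their group mean. WT replicate 1, the lowest for the epithelial genes, was not the lowest for thymocytes.

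Genes of immature thymocytes set these arrays apart further. Dntt, the terminal transferase, was at −2.39, 0.55, −2.48, −2.18 and −3.47 in KO2 replicates 1 to 5 and at 0.33, −1.33, −1.49, −2.25 and 5.12 in WT replicates 1 to 5. Rag1, the recombinase, was at −8.27, −2.05, −7.97, −6.55 and −7.93 in KO2 and at −3.04, −7.44, −6.76, −8.19 and 1.19 in WT. Rag1 was well above background on 1 of 5 KO2 and 2 of 5 WT arrays, so its other levels are near background. Both genes were highest on WT replicate 5, then on KO2 replicate 2 and WT replicate 1. WT replicate 2, with Psmb11 at 2.64, had Rag1 at −7.44, not well above background. The T-cell surface genes Cd2, Cd5, Cd3g, Cd6 and Cd8a, named above for following the epithelial genes, went the other way. On WT replicate 2 they were at −2.18, 0.09, −0.94, 0.45 and −1.93, and only WT replicate 5 was higher among WT arrays. On WT replicate 1 they were at −4.48, −2.37, −3.75, −1.60 and −3.11. The part of thymocytes or of thymus tissue in the differences between genotypes was not tested.

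On the low-iodine diet the brightest probes of Psmb11 and Ccl25 had nearly equal means in KO2 and WT, and the 7 genes were loosely related between arrays. No member passed the genotype test (0 of 7 at adjusted p and 0 at unadjusted p under 0.05 in limma), where 15.0% of all genes did; their median difference was 0.02, against −0.02 over all genes. Psmb11 was at −5.99, −4.08, −5.93 and −4.93 in KO2 replicates 1 to 4 and at −5.43, −4.53, −5.43 and −5.62 in WT replicates 1 to 4, well above background on 1 of 4 KO2 and 3 of 4 WT arrays. Ccl25 was at 2.75, 2.59, 2.49 and 2.85 in KO2 and at 2.66, 2.50, 2.58 and 2.58 in WT. By the Psmb11 probe used throughout, no low-iodine array reached the bright WT arrays of the normal diet. On the low-iodine WT arrays that probe averaged −5.25 and was dimmer than the second probe, which averaged −3.98. The second Psmb11 probe read otherwise: it was at −5.80, −5.57, −5.35 and −5.19 in KO2 replicates 1 to 4 (well above background on 1 of 4) and at −5.30, −2.47, −5.13 and −3.03 in WT replicates 1 to 4 (4 of 4), against −4.47 to −2.05 on WT replicates 2 to 5 of the normal diet. Its difference of KO2 minus WT was −1.49 ± 1.03 SE (adjusted p = 0.402, limma over all probes), and it followed the probe used throughout loosely (r = 0.291 within groups).

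Tbata was the exception among the 7. It was at −3.49, −3.60, −3.32 and −3.34 in KO2 replicates 1 to 4 and at −0.77, −0.39, −1.12 and −1.22 in WT replicates 1 to 4. The groups did not overlap, for 1 of 7 genes as for 19.7% of all genes, and the KO2 mean was 5.91-fold lower. The difference (−2.56 ± 1.30 SE) did not pass in the model of all 18 arrays (adjusted p = 0.217, limma), passed with the low-iodine arrays fitted alone (adjusted p = 3.03e-04) and passed without slide 1 (adjusted p = 0.00222; 1 of 7 members, against 14.4% of all genes). The model of all 18 arrays pools the variance over both diets, and the within-group SD of Tbata was 2.63 on the normal diet and 0.28 on low iodine. On slides 4 and 5 the difference was −2.84 and −2.29. The second Tbata probe was well above background on 0 of 4 KO2 and 1 of 4 WT arrays and differed by −1.18 (adjusted p = 0.579).

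The groups of the other genes overlapped. Prss16 averaged −4.32 ± 0.62 in KO2 and −3.22 ± 1.04 in WT (SD, n = 4 each), Foxn1 −1.48 ± 0.57 in KO2 and −2.08 ± 0.68 in WT, and Aire −3.59 ± 0.31 in KO2 and −3.47 ± 0.48 in WT. Fezf2, with −5.10 ± 0.92 in KO2 and −5.69 ± 2.05 in WT, was the one gene still at percentile 99.2 of within-group spread. The pooled SD was 0.12 for Ccl25, 0.28 for Tbata and 0.73 for Psmb11, against a median of 0.368 over all genes.

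Over the 21 pairs, r on low iodine lay between −0.163 and 0.740 with a median of 0.334. In 1 pair Pearson’s r had an unadjusted p under 0.05 by the exact test over 576 arrangements, and without the 2 farthest arrays of each pair the median r was 0.0142. In the regression on Foxn1, 0 of 6 members and 0% of all genes passed. The 2 Ccl25 probes themselves did not follow each other there (r = −0.439), and the second ranged from −3.83 to −0.71 in KO2 and from −3.52 to −1.39 in WT while the brighter was flat. Whether the correlations differ between the diets was not tested.

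A change of the genotype difference with diet passed for 0 of 7 genes (1.22% of all genes; 3 members at an unadjusted p under 0.05, limma), with a median of 1.83 against −0.04 over all genes. Without slide 1 the change with diet passed for 4 (0.580% of all genes). These were Psmb11 (7.50 ± 0.65 SE, adjusted p = 2.08e-04), Ccl25 (4.93 ± 0.47 SE, adjusted p = 3.42e-04), Tbata (3.92 ± 0.66 SE, adjusted p = 0.0176) and Prss16 (4.51 ± 0.79 SE, adjusted p = 0.0233, all limma). Slide 1 was chosen for removal on the values of these same genes, so these p-values are a description. With all 18 arrays, the second Psmb11 probe changed by 1.65 ± 1.38 SE (adjusted p = 0.647, limma over all probes). The brighter Psmb11 probe changed by 5.21, so the size of this change depended on the probe. The second Ccl25 and Tbata probes changed by 3.68 and 1.53, near the 3.55 and 1.70 of the brighter ones.

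The diets differed in most genes and their arrays were read on different scanners and slides, so the diet cannot be told apart from the array set it was read on. In WT, low iodine minus normal passed for 3 of 7 genes, as for 75.9% of all genes: Psmb11 (−5.99 ± 1.29 SE, adjusted p = 4.59e-04) and Prss16 (−4.11 ± 0.81 SE, adjusted p = 2.12e-04) were lower and Foxn1 (1.89 ± 0.71 SE, adjusted p = 0.0240, limma) higher. In KO2 it passed for 2, as for 74.4% of all genes, both higher: Foxn1 (3.72 ± 0.71 SE, adjusted p = 1.71e-04) and Ccl25 (3.26 ± 0.80 SE, adjusted p = 0.00156, limma). The second probes did not pass: that of Psmb11 differed by 0.25 in WT (adjusted p = 0.824), opposite in sign to the brighter probe, and that of Ccl25 by 1.83 in KO2 (adjusted p = 0.0816, limma over all probes). Without slide 1, 5 genes passed in WT (74.1% of all genes) and 5 in KO2 (72.5%), again a description, since slide 1 was chosen on these genes' values.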

How the data were processed

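The deposited value of each spot is its processed signal, an intensity on a linear scale that Agilent Feature Extraction had background-subtracted and detrended, per the file headers. The submitters' processing notes name Agilent Feature Extraction version 12; the headers give release 12.0.0.7 for the normal-diet and 12.0.3.1 for the low-iodine arrays. The authors' summary table held the same intensities.

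Each spot's log2 deposited intensity was taken minus the array's 75th percentile. Probes were named by accession (28215 of 41174 had 1 gene, 12959 none and 0 several). The filter kept 26510 named probes that were well above background on 4 or more of 18 arrays, and the brightest of each gene was used (17924 genes). limma 3.58.1 in R 4.3.3 fitted 4 group means over 18 arrays, with Benjamini-Hochberg adjustment over all genes and a threshold of 0.05. Slopes on 1 member's within-group deviation were fitted the same way. Exact permutations used SciPy 1.17.1 in Python 3.11.15. The fits were tested on simulated data.

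The members and lists were chosen with earlier results of these data known. The genes named are the 7 members, the 12 most alike genes outside them (leaving out clone, predicted-gene and Rik names) and up to 4 per marker list; Dntt, Rag1, Slc26a4, Pth and Krt14 were named after their values were seen. normexp, as an alternative, used the spot median because the deposited files hold no spot mean. The number of arrays limits the precision, and p-values measure the spread between these samples, which may be technical.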

Additional observations from a re-analysis of the deposited data

Results flagged for a closer look

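In 7 of 28 sets of arrays (7 genes in 4 groups), 1 array's distance from the nearest other exceeded the limit of Dixon's test, which chance passes in about 1 of 20 sets. The sets are not independent of each other. KO2 replicate 2 on the normal diet was the high array for Aire (−2.40), Ccl25 (1.42), Psmb11 (−0.80) and Tbata (−0.79). WT replicate 1 on the normal diet was the low array for Foxn1 (−6.85) and Psmb11 (−4.78). WT replicate 4 on low iodine was the low array for Foxn1 (−3.10). The first 2 arrays share slide 1, and the part of the slide in these values was not tested.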

How the results depend on the processing

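Of the 3 members called lower in KO2 on the normal diet, 0 were called with the arrays of the diet alone and 1 with slide as a block, and leaving out single arrays gave 1 to 4. The low-iodine genotype count of 0 became 1 with the arrays of the diet alone and 1 without slide 1. The interaction count of 0 became 4 without slide 1 and 0 to 2 when single arrays were left out, with 2 without WT replicate 1 of the normal diet. The diet count of 3 in WT became 5 without slide 1, and 2 to 3 without single arrays. The diet count of 2 in KO2 became 5 without slide 1, and 2 to 4 without single arrays, with 4 without KO2 replicate 2 of the normal diet. The count following Foxn1 on the normal diet, 0, became 1 with slide as a block, 2 with Psmb11 as the regressor (2 within KO2 arrays and 2 within WT arrays), 3 with Prss16, 2 with Ccl25, and 0 to 1 without single arrays (1 without KO2 replicate 3). Aire in WT, 0.11 between diets (adjusted p = 0.880), was −1.42 with quantile normalization (adjusted p = 0.0201). Causes were not tested. Over all genes, 249 differed between genotypes on the normal diet, against 3 with its arrays alone, 992 with array weights, 394 with a trended robust prior, 163 without slide 1 and 123 to 675 without single arrays. On low iodine 2687 differed, against 1600 with median scaling and 1673 with its arrays alone. The interaction had 219, against 87 with median scaling and 709 with quantile normalization, the ends of its range. Genes following Foxn1 numbered 1 on the normal diet, against 155 with normexp, and 0 on low iodine, against 1026 with array weights. With the replicate block 2 members were called lower on the normal diet, Psmb11 no longer (adjusted p = 0.0541, limma), and 160 genes in all. Same-numbered arrays correlated between −0.0379 and 0.323. Arrays of different numbers were not compared, so whether the numbers pair the arrays is not known. Near background, Fezf2 and, on low iodine, Psmb11 have imprecise levels.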

Other observations

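Parathyroid tissue, which shares its origin in the pharyngeal pouch with the thymus, gave another gene with lone arrays. Pth, the parathyroid hormone gene, was at 8.60, 8.16, 1.59, 8.87 and 8.16 in KO2 replicates 1 to 5 and at 8.37, 8.75, 8.42, 8.64 and 8.28 in WT replicates 1 to 5 on the normal diet, so that KO2 replicate 3 stood alone. On low iodine it was at 0.08, 5.94, 6.16 and 6.54 in KO2 replicates 1 to 4 and at 6.06, 5.67, 6.02 and 5.61 in WT replicates 1 to 4, with KO2 replicate 1 alone. The arrays that stood apart for the thymic genes on the normal diet, KO2 replicate 2 and WT replicate 1, had Pth at 8.16 and 8.37, in the range of the others. KO2 replicate 3 of the normal diet, with Pth at 1.59, was the highest KO2 array for 1 of the 7 thymic genes, Foxn1, and had Psmb11 at −5.66. KO2 replicate 1 of low iodine, with Pth at 0.08, was the lowest KO2 array for 2 of the 7, Psmb11 and Fezf2.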
